A study of Mus musculus with 2 samples.

Results

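The miR-30 family genes Mir30a, Mir30b, Mir30d and Mir30e were examined in adrenal gland tissue of newborn mice. They were taken by gene symbol, and all 4 were found among the 2202 miRNA genes of the deposited count tables. The samples were adrenal glands of 4-day-old females of the strain B6CASTF1/J, offspring of a cross between the strains C57BL/6J and CAST/EiJ. No treatment or further allele is stated, and the series holds 1 group of 2 libraries, biological replicates 1 and 2. The labels number the females separately but give both samples the same donor identifier, so separate animals are taken from the numbering alone. With no second condition, the data describe the levels of these miRNAs and how far the libraries differ.

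A miRNA gene is transcribed as a longer RNA from which a hairpin is cut, and the hairpin yields a short mature strand from its 5′ arm (5p) or its 3′ arm (3p). The mature strand guides Argonaute proteins to messenger RNAs, mostly through its seed, the stretch from base 2 to base 8, and lowers their translation or stability. The miR-30 family is broadly expressed and is best known from epithelial cells of the kidney, from endothelial cells, from fat and bone cell differentiation, and as a regulator of autophagy and of epithelial to mesenchymal transition. The adrenal gland consists of a cortex that makes steroid hormones and a medulla that makes catecholamines, both rich in vessels.

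The mature sequences of Mir30a and Mir30e are shown because these genes have nearly the same product. Capitals mark the seed, and the sequences are those of RefSeq on GRCm38.p6. Mir30b and Mir30d have no entry in the sequence table used here and are named only. 
miR-30a-5p: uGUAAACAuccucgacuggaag
miR-30e-5p: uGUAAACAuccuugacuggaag
miR-30a-3p: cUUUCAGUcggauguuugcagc
miR-30e-3p: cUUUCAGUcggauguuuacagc

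The 5p strands of Mir30a and Mir30e share the seed GUAAACA and their first 12 bases. Over 22 bases they differ at 1 position, C13U, with miR-30a-5p given first and positions counted from the 5′ end. The 3p strands share the seed UUUCAGU and differ by G18A. Mir30c-1 and Mir30c-2, further genes of the family, yield an identical 5p strand with the same seed as miR-30a-5p. Another gene of that name, Mir30f, is annotated on the strand opposite to Mir30e, and the seed of its mature strand, UAAACAU, is moved by 1 base relative to the others. These sequences are shown for the comparison of the seeds.
miR-30c-5p: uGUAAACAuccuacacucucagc
miR-30f: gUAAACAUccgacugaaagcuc
miR-384-5p: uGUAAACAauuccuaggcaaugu

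Of 1738 mature sequences in that table, the seed GUAAACA was held by the 5p strands of Mir30a, Mir30e, Mir30c-1 and Mir30c-2 and by miR-384-5p. Mir30b and Mir30d have no entry there, so this search could not find them and their seeds were not compared. Mir384, an X-linked gene, had 111 reads in replicate 1 and 79 in replicate 2, or 22.4 and 17.5 CPM. CPM is a gene's read count scaled to a common total of reads assigned to miRNA genes (counts per 1000000). These counts are far below those of Mir30a and Mir30e. The reads were assigned to hairpin genes, so 5p and 3p strands were not told apart.

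The members lie at 3 loci (mm10, GENCODE M21). Mir30a lies on the plus strand at chr1:23272269-23272339, outside any other annotated gene, and Mir30c-2 follows 19.4 kb downstream within an exon of the noncoding gene Gm27028. Mir30e lies on the minus strand at chr4:120772606-120772697 in an intron of Nfyc, which encodes a subunit of the transcription factor NF-Y, and Mir30c-1 follows 2.98 kb downstream in the same gene. Mir30d lies on the minus strand at chr15:68341208-68341289 within an exon of the noncoding gene Gm20732. It also overlaps the annotated locus Gm37296 by 9 bases. Mir30b lies 3.70 kb downstream of it at chr15:68337415-68337510, with 16 bases inside an exon of the noncoding gene Gm26621. Mir30f covers the same bases as Mir30e on the plus strand, and no miRNA gene other than those named here lay within 10 kb of a member.

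The depth was 4960537 reads on the annotated strand of miRNA genes in replicate 1 and 4506482 in replicate 2. All 4 members passed the read minimum of 10 in both libraries that 377 genes passed. For Mir375, a neuroendocrine miRNA, the level was 36379 CPM in replicate 1, against 41025 CPM in replicate 2. The series holds no other tissue to set this level against, and no list of miRNAs that mark the adrenal cortex was used. The tissue label was therefore not tested.

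Mir30d, Mir30e and Mir30a were abundant, and Mir30b was far lower. Mir30d had 42352 reads in replicate 1 and 26039 in replicate 2, or 8538 and 5778 CPM. Mir30e had 36721 reads in replicate 1 and 27173 in replicate 2, or 7403 and 6030 CPM. Each of these ranked between place 26 and place 36 of all miRNA genes in both libraries. Mir30a had 31196 reads in replicate 1 and 20571 in replicate 2, or 6289 and 4565 CPM, at places 34 and 40. Mir30b had 960 reads in replicate 1 and 649 in replicate 2, or 194 and 144 CPM, at places 178 and 176.

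**Figure D1:**
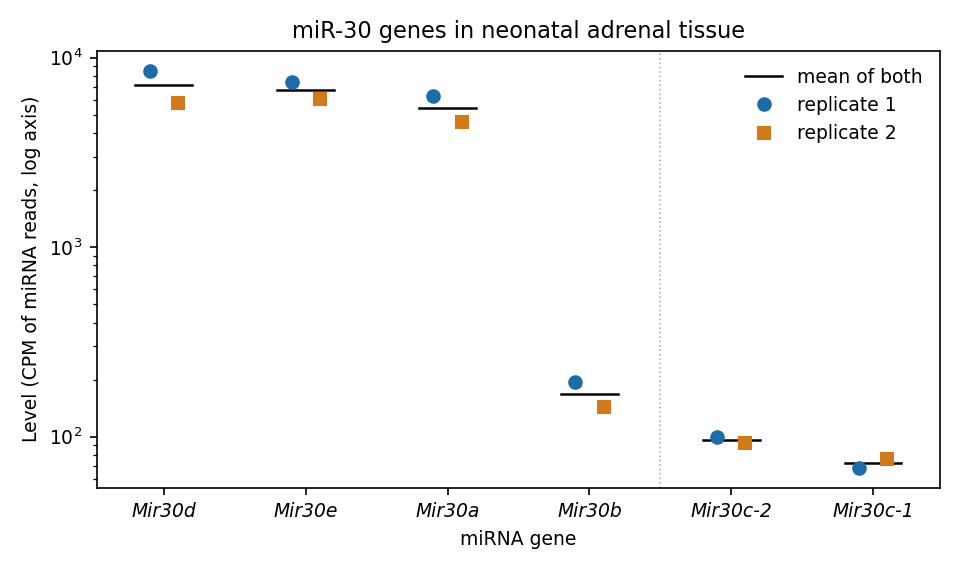
Level of each miR-30 gene with reads, in CPM of miRNA reads on a log axis, with replicate 1 as circles, replicate 2 as squares and the mean as a line. Mir30d, Mir30e and Mir30a sit between 4565 and 8538 CPM, Mir30b between 144 and 194 CPM, and the Mir30c genes, right of the dotted line, at or below 99.8 CPM.

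As means, Mir30d reached 7158 CPM ± 1951, Mir30e 6716 CPM ± 971, Mir30a 5427 CPM ± 1219 and Mir30b 169 CPM ± 35.0 (SD, n = 2 for each). The ranges of Mir30d and Mir30e overlapped over the libraries, and so did those of Mir30e and Mir30a. Only the step down to Mir30b exceeded the ranges of its neighbours. A read of this size class is taken as 1 mature strand, so these levels carry no length term. Per base of the annotated hairpin, which is 71 bases long for Mir30a and 92 for Mir30e, the mean order was Mir30d, Mir30a, Mir30e, Mir30b.

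Ratios between genes of the same library need no scaling between libraries. Mir30d had 1.15 times the reads of Mir30e in replicate 1 (95% exact interval 1.14 to 1.17) and 0.958 times in replicate 2 (0.942 to 0.975). Which of this pair was first therefore depended on the library. Mir30d exceeded Mir30a in both libraries, by 1.36 times in replicate 1 and 1.27 times in replicate 2. Mir30e likewise exceeded Mir30a, by 1.18 times in replicate 1 and 1.32 times in replicate 2. For each of these 3 pairs the intervals of the 2 libraries did not overlap, so the read proportions differed by more than the counting error of independent reads. All intervals cover this counting error only. Reads copied by PCR and not marked by molecular identifiers do not each stand for a molecule, so the intervals can be too narrow for molecules.

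**Figure D2:**
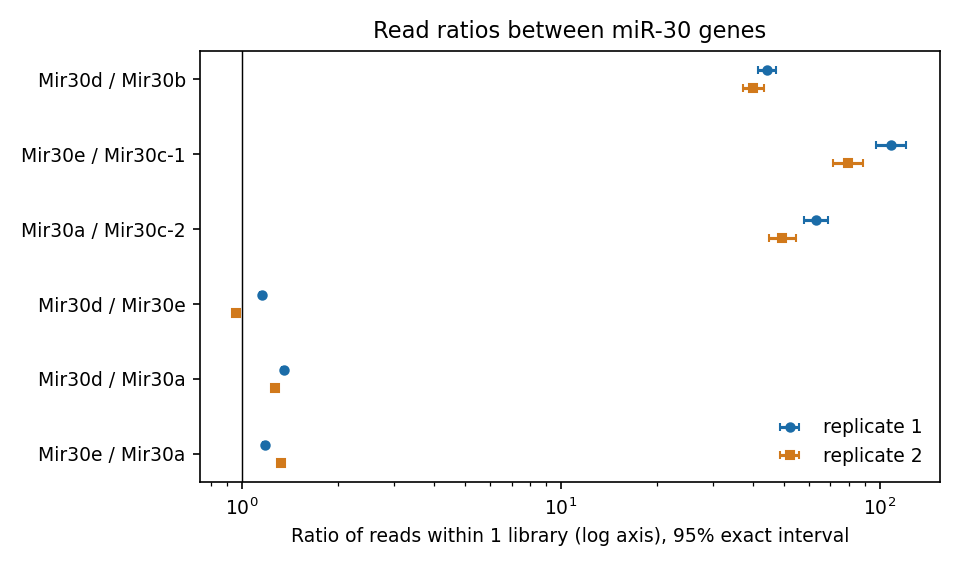
Ratio of reads between miR-30 genes within replicate 1 (circles) and within replicate 2 (squares) on a log axis, with 95% exact intervals. The upper 3 ratios compare neighbours at 1 locus and run from 40.1 to 108, and the lower 3 compare the abundant members and stay between 0.958 and 1.36.

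At each locus the count of the upstream hairpin was high and that of its downstream neighbour low. Mir30d had 44.1 times the reads of Mir30b in replicate 1 (41.4 to 47.1) and 40.1 times in replicate 2 (37.1 to 43.4), and these intervals overlapped. Mir30e had 108 times the reads of Mir30c-1 in replicate 1 and 79.2 times in replicate 2. Mir30a had 63.0 times the reads of Mir30c-2 in replicate 1 and 49.3 times in replicate 2. The deposited tables hold reads that mapped to several places in a row of their own, outside the gene counts. Mir30c-1 and Mir30c-2 share a run of 28 bases that holds their whole 5p strand. Reads of that strand that mapped to both genes are missing from their counts. The Mir30c counts are therefore uncertain and can be too low, and the 2 ratios over them too high.

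Among the members, Mir30d shared no run of 18 bases with another hairpin in the tables. Mir30b shared a run of 18 bases with both Mir30c genes, and Mir30a and Mir30e shared 1 of 18 bases. How many reads of these members were lost to mapping at several places was not tested. In the libraries as a whole such reads were 25.9% of all reads in replicate 1 and 27.8% in replicate 2.

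**Figure D3:**
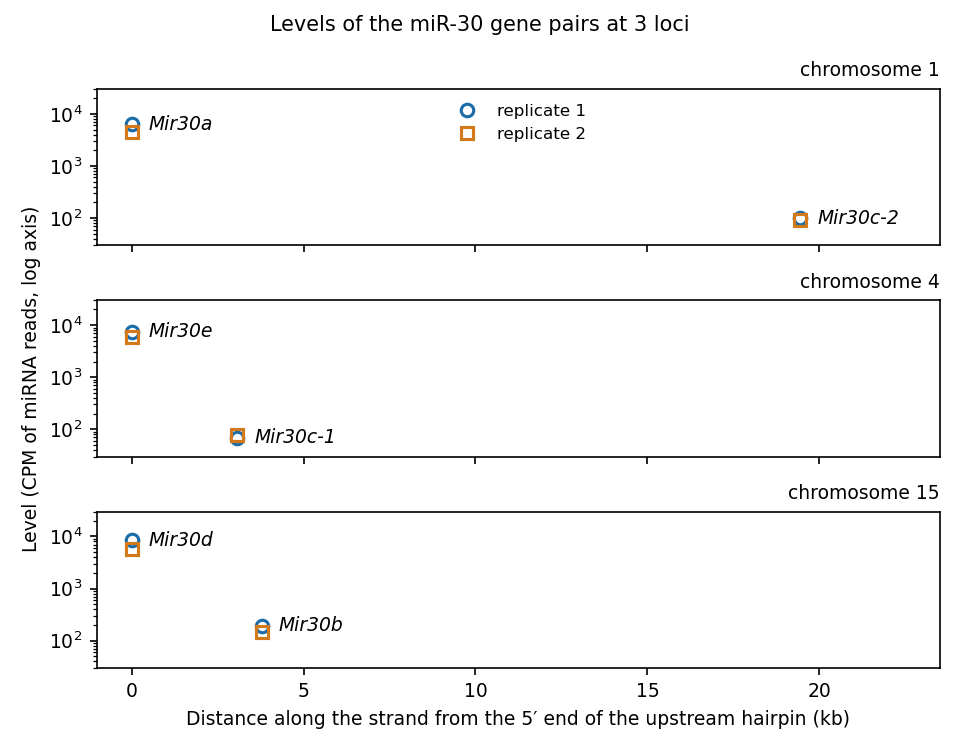
Level in CPM (log axis) of the miR-30 genes at 3 loci against the distance in kb along their strand, with replicate 1 as circles and replicate 2 as squares. Mir30a, Mir30e and Mir30d lie upstream at 4565 to 8538 CPM, and the genes 19.4, 2.98 and 3.70 kb downstream of them lie at 68.3 to 194 CPM.

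The strand mattered for Mir30e. Its hairpin and that of Mir30f cover the same 92 bases on opposite strands. Mir30f had 0 reads on its own strand in both libraries, which allows a share of up to 6.05e-05% of the miRNA reads in replicate 1 and 6.66e-05% in replicate 2. In the deposited column that ignores strand, Mir30e also had 0 reads, and the same column sets aside reads that fit more than 1 gene. The Mir30e reads equal 3.61% of the reads set aside in replicate 1 and 5.46% in replicate 2. The other members had 0 reads on the opposite strand and the same count in both columns.

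Together the 4 members took 2.24% of the miRNA reads of replicate 1, with a 95% interval (Wilson) of 2.23 to 2.26, against 1.65% in replicate 2, with 1.64 to 1.66. Their mean was 1.95% ± 0.418 (SD, n = 2). Within the 7 miR-30 genes of the annotation, Mir30d made up 37.8% of the reads in replicate 1 and 34.6% in replicate 2. Mir30e made up 32.8% in replicate 1 and 36.1% in replicate 2. Mir30a made up 27.8% in replicate 1 and 27.4% in replicate 2, and Mir30b 0.857% and 0.863%. Mir30a and Mir30b thus held nearly level parts of the counted family reads in both libraries, whereas Mir30d and Mir30e changed places.

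All 4 members were called higher in replicate 1, by an exact two-sided binomial test of each gene's reads with Benjamini-Hochberg adjustment over the 377 genes. The test compares these 2 libraries, not conditions, and takes counting error as the only error. Of all genes tested, 68.2% were called in either direction, with 32.6% called higher in replicate 1 and 35.5% in replicate 2, so a call was common at this depth. Mir30d was 1.35-fold higher in replicate 1 (log2 ratio 0.43, 95% exact interval 0.41 to 0.45), after TMM scaling, which sets the libraries to a common level by trimmed mean ratios. Mir30a was 1.26-fold higher (log2 ratio 0.33, 0.31 to 0.36), Mir30b 1.23-fold (0.30, 0.15 to 0.44) and Mir30e 1.12-fold (0.16, 0.14 to 0.19). The adjusted p was 0.000105 for Mir30b and at most 6.36e-46 for the other members. Summed, the members were 1.24-fold higher in replicate 1.

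These differences were small against the general spread of the pair. The log2 ratios of all 377 genes had a median of -0.04, a median size of 0.45 regardless of sign and an SD of 0.97, whereas the median over the 4 members was 0.31. Ordered by ratio towards replicate 1, the members held places 99 to 139, and 98 genes stood ahead of Mir30d. Scaling by total reads in place of TMM added 0.13 to every log2 ratio. The median then became 0.09 over all genes and 0.44 over the members, with 38.2% of genes called higher in replicate 1 and 29.7% in replicate 2. With edgeR's exact test, which sets each gene against the common dispersion of the same pair (a coefficient of variation of 0.433), no member passed, each with an adjusted p of 1. That test called 7 of 377 genes, or 1.86%, and 24 had an unadjusted p under 0.05, none of them a member.

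**Figure D4:**
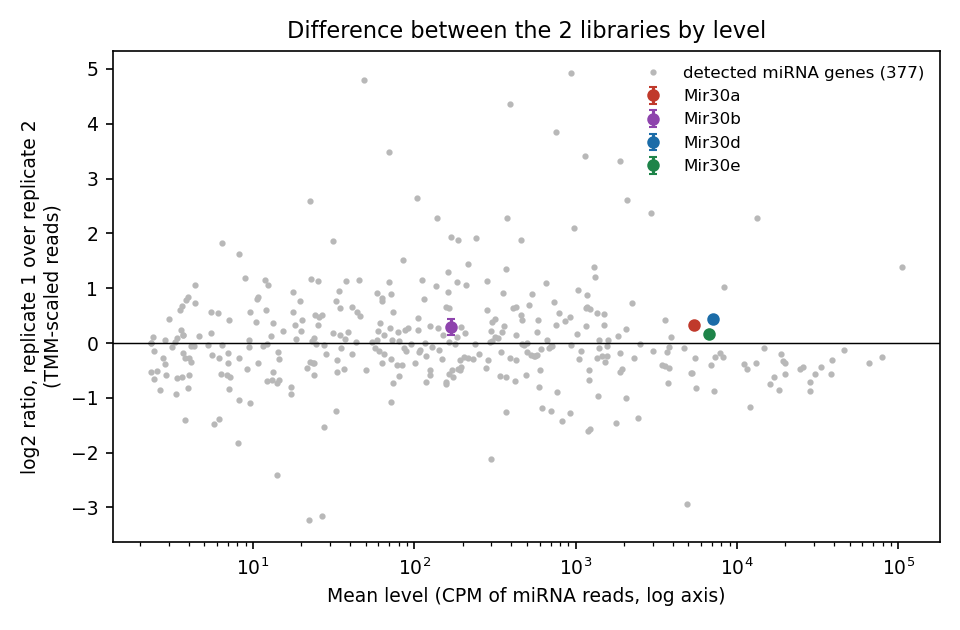
Log2 ratio of replicate 1 over replicate 2 (TMM-scaled reads) against mean level in CPM (log axis) for the 377 detected miRNA genes in grey, with Mir30a, Mir30b, Mir30d and Mir30e in colour and bars for their 95% exact intervals. The members lie between 0.16 and 0.43, within the cloud of other genes.

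Mir30a, Mir30d and Mir30e were also set beside the other abundant miRNAs. Of the 37 genes with a mean of at least the level of Mir30a, 7 were called higher in replicate 1 and 30 in replicate 2, with a median log2 ratio of -0.37. Over all 377 genes tested, 32.6% were called higher in replicate 1 and 35.5% in replicate 2. The set of 37 was chosen after the values were seen, its limit is the level of a member, and the 7 include 3 members. For these reasons no difference from other genes was tested. The 7 were Mir30a, Mir30d and Mir30e together with Mir22, Mir126a, Mir125a and Mir130a. With scaling by total reads, 8 of the 37 were called higher in replicate 1 and 28 in replicate 2. Over all 377 genes that scaling gave 38.2% and 29.7%.

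The other miR-30 genes had lower counts than the members, and the Mir30c counts leave out reads that mapped to several places. Mir30c-1 had 339 reads in replicate 1 and 343 in replicate 2, or 68.3 and 76.1 CPM. It was called higher in replicate 2 after TMM scaling (log2 ratio -0.29, adjusted p = 0.0155, exact binomial test), but not with total reads (-0.16, adjusted p = 0.216, same test). The call was also lost with DESeq2 size factors (adjusted p = 0.0606, same test) and TMM factors from the detected genes (adjusted p = 0.0941, same test). By edgeR's exact test Mir30c-1 was not called either. It stayed called with the other read filters and with reads on either strand. Mir30c-2 had 495 reads in replicate 1 and 417 in replicate 2, or 99.8 and 92.5 CPM. It was not called under any of these settings, and its log2 ratio changed sign, at -0.02 with TMM and 0.11 with total reads. Of the 3 further genes of the family, only Mir30c-1 was thus called after TMM scaling, as were 68.2% of all genes tested. Mir30f was not tested.

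Markers of other cell types and tissues differed between the same libraries, and their part in the members' ratios was not tested. A call of a list gene was common by itself, since 68.2% of all 377 genes tested were called. Of all these genes, 32.6% were called higher in replicate 1 and 35.5% in replicate 2. In bulk tissue, fewer cells of a type and less RNA per cell cannot be told apart. The 7 epithelial miRNA genes summed to 0.471% of the reads in replicate 1 and 0.116% in replicate 2, with 6 called higher in replicate 1 and Mir203 higher in replicate 2. The 6 kidney-enriched genes summed to 0.0424% in replicate 1 and 0.0182% in replicate 2, with 3 of 4 detected genes called higher in replicate 1. Of these, Mir192 stood at 181 CPM in replicate 1, against 26.4 CPM in replicate 2. After TMM scaling Mir192 was 6.25-fold and Mir194-2 3.64-fold higher in replicate 1. Mir204 was only 1.24-fold higher there, and Mir190a, at 1.16-fold, was not called. Below the read minimum, Mir194-1 had 0 reads in replicate 1 and 4 in replicate 2, and Mir215 had 26 and 8. Loss of reads to mapping at several places was not tested for numbered copies such as Mir194-1.

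The endothelial list of 4 genes, led by Mir126a, summed to 17.1% in replicate 1 and 7.51% in replicate 2, with 2 genes called in each direction. Without Mir126a the other 3 genes summed to 1.45% in replicate 1 and 2.04% in replicate 2, so the higher share in replicate 1 rests on Mir126a. The 3 erythroid genes summed to 0.106% in replicate 1 and 0.0287% in replicate 2, with Mir144 and Mir451a called higher in replicate 1 and Mir486 in replicate 2. Striated muscle went the other way, at 0.125% in replicate 1 and 0.869% in replicate 2, with 3 of 10 genes detected and all 3 higher in replicate 2. Mir206 held 6146 of the 6221 reads of that list in replicate 1 and 38876 of 39153 in replicate 2, so the sum rests on Mir206. Among the genes below the read minimum, Mir1b had 18 reads in replicate 1 and 4 in replicate 2. Mir1a-2 had 5 and 2 reads in that order, and Mir133b 9 and 29. Mir208a, Mir133a-1 and Mir133a-2 of that list had 0 reads in replicate 1. Reads that mapped to several places stay outside these counts. Whether numbered copies such as Mir133a-1 and Mir133a-2 lost reads in this way was not tested. The 4 neuroendocrine genes summed to 4.02% in replicate 1 and 4.56% in replicate 2, with 1 called higher in replicate 1 and 2 in replicate 2. No gene of these lists was at 0 in both libraries.

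Likeness of level was measured as the distance between genes on log2(CPM + 1) in the 2 libraries, so it describes levels alone. Mir130a, a miRNA studied in vessel growth, was nearest to Mir30e (distance 0.043) and to Mir30d (0.18), at 7539 CPM in replicate 1, against 5892 CPM in replicate 2. Mir30d and Mir30e were next to each other at 0.21. The further genes named by this measure were Mir125a for Mir30d (0.46) and Mir98 for Mir30e (0.35). Those nearest to Mir30a were Mir191 (0.40), Mir351 (0.43) and Mir130a (0.45). For Mir30b they were Mir874 (0.20), Mir574 (0.24) and Mir500 (0.25), none of them a miR-30 gene.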

How the data were processed

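For each library the authors deposited whole-number read counts per miRNA gene, not normalized. Per the file headers and descriptions the assembly was mm10 and the annotation GENCODE M21; how the reads were aligned and counted is not given in the sources used here. Of the 3 count columns, which carry no names, the values showed them to be either strand, annotated strand and opposite strand; the annotated strand was used. The 4 leading rows name no gene and stayed out of totals; miRNA genes held 42.4% of all reads in replicate 1 and 39.9% in replicate 2. A CAST/EiJ sequence difference can lower a count in both libraries. All 2202 identifiers matched GENCODE M21, and 2 of the 4 members had RefSeq mature sequences.

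TMM factors (1.05 and 0.956 for replicates 1 and 2) came from edgeR 4.0.16 over the 831 genes with a read. Genes with at least 10 reads in both libraries were tested with scipy 1.17.1 by the exact binomial test. Calls were made at an adjusted p under 0.05. The test was run on simulated data, but it takes counting error as its only error. That run therefore does not show how the test behaves at the spread of this pair, a coefficient of variation of 0.433. Its power for genes with few reads is not reported here. DESeq2 1.42.0 gave alternative size factors. The named genes were the members, other miR-30 genes, marker lists and, for each member, the 3 genes nearest in level. Members and lists were chosen with earlier results of these data known.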

Additional observations from a re-analysis of the deposited data

Results flagged for a closer look

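Reads appeared outside the column used, on the strand opposite to Mir30f, with 36721 in replicate 1 and 27173 in replicate 2. Both counts equal those of Mir30e on its own strand, where the hairpins cover the same bases. No other miR-30 gene had a read on its opposite strand.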

How the results depend on the processing

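All 4 members stayed called and higher in replicate 1 with total reads, DESeq2 size factors and no filter beyond 1 read in either library. The same held with a mean of at least 100 reads and, chosen after seeing the data, TMM factors from the detected genes. In that order, 67.9%, 67.9%, 31.8%, 82% and 67.1% of all genes tested were called in either direction. The log2 ratios of the members ran from 0.16 to 0.30 for Mir30e and from 0.43 to 0.56 for Mir30d. With edgeR's exact test 0 members were called, at log2 ratios of 0.33 (Mir30a), 0.30 (Mir30b), 0.43 (Mir30d) and 0.16 (Mir30e). With all reads of the library as the total, levels were 2244 (Mir30a), 69.8 (Mir30b), 2963 (Mir30d) and 2772 CPM (Mir30e), and the summed share was 0.805%. With reads on either strand, Mir30e had 0 CPM and no ratio, 3 members were called and the order kept 1 of its places. In that setting 67.9% of the 349 genes tested were called in either direction. The order by mean CPM kept 2 of 4 places per base of the hairpin, an alternative chosen after seeing the data, and between 2 (without replicate 1) and 4 (without replicate 2) from 1 library alone. Leaving out a library leaves no ratio. No paired analysis was possible because the series holds 1 group. With 2 libraries, depth limits little for the abundant members, and the spread between animals rests on n = 2.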

Other observations

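Mir30e is 1 of 27 detected genes, of 377, whose reads were all absent from the column that ignores strand. By mean level it ranked in place 3 among them, after Mir378a and Mirlet7e. Together these genes held 4.68% of the annotated-strand reads in replicate 1 and 5.35% in replicate 2.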
